A study of Mus musculus with 12 samples.

Results

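In control mouse embryonic stem cells (mESCs) differentiated with retinoic acid, 21 of 24495 genes were low at Day 2 while they were well expressed before it and after it. They were chosen from the control libraries alone. A gene was kept when its mean over the 2 control libraries was at least 5 CPM (the count scaled by the total of its library) at Day 0 and at Day 4, and when each of those means was at least 2 times the Day 2 mean plus 0.5 CPM. Symbols starting with Hox, Sox, Col, Hist or Zfp9 were left out. The level alone was met by 9634 genes, so the 21 genes were 0.218% of these. With CPM scaled by TMM factors, a normalization for differences in composition, 37 genes met the rule, the 21 among them. From the deepest dip to the shallowest they were S100a6, Nupr1, Anxa2, Plaur, Pdgfc, Slco4a1, Pcolce, Gli1, Jag1, Lad1, Pou3f1, Tns3, Socs3, Nefl, Cpt1a, Map1a, Atp1b1, Clmp, Kbtbd11, Ndrg2 and Jade2. The mirrored pattern, with Day 2 at least 2 times above both other days by the same terms, was met by 267 genes in the control line.

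RNA-seq was made from CCE-Nanog-GFP mESCs, a line sorted for a GFP reporter of Nanog, that carry a lentiviral shRNA. The control, labelled scr with the genotype WT and called shSC here, carries a scramble shRNA, and the knockdown, labelled CTSL KD and called shCTSL here, carries an shRNA against the protease cathepsin L. Both lines were selected with puromycin, and each was sampled as undifferentiated cells kept with LIF (Day 0) and as embryoid bodies (EBs) grown without LIF and with retinoic acid for 2 and 4 days (Day 2 and Day 4). Each of the 6 groups holds 2 libraries, which the study calls biological replicates, and the sequenced knockdown is a single shRNA line. The study used the RNA-seq to ask how gene expression changed over differentiation when cathepsin L was reduced.

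LIF keeps mESCs undifferentiated through the receptor LIFR and the transcription factor STAT3, and Socs3 is a known feedback inhibitor of that pathway. Retinoic acid acts through nuclear receptors and drives exit from the undifferentiated state, and within EBs the cells then diverge into several lineages, including an epithelial outer layer of endoderm. In bulk RNA, fewer cells of a type and less RNA per cell cannot be told apart, and this holds for every level given here.

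The libraries held 11171111 to 27155553 counts, which limits precision to counting error plus the spread of 2 libraries per group. Ctsl itself was at 137.1 and 147.2 normalized CPM in the shSC Day 0 libraries against 39.2 and 37.5 in shCTSL, at 368.8 and 391.2 against 210.5 and 155.4 at Day 2, and at 483.5 and 422.8 against 257.2 and 252.5 at Day 4. The mESC marker Nanog averaged 544.8 normalized CPM in shSC and 554.7 in shCTSL at Day 0 and 48.5 and 46.7 at Day 4. Several markers of later lineages changed with the day in both lines, but not all in the same direction. The endoderm gene Ttr rose from a mean of 0 at Day 0 to means of 83.7 (shSC) and 105.8 (shCTSL) normalized CPM at Day 4. Some markers fell although most of their lineage rose. The endothelial gene Pecam1 had Day 0 means of 83.5 (shSC) and 60.4 (shCTSL), against Day 4 means of 45.2 and 35.1. Its Day 2 means were lower still, at 22.7 and 12.6. The other endothelial markers looked at rose, such as Kdr from 2.18 to 108.9 in shSC. For the trophectoderm gene Tfap2c the Day 0 means were 55.6 and 34.5, against 23.3 and 15.5 at Day 4. Most other trophectoderm markers rose, such as Gata3 from 2.08 to 199.3 in shSC, while Ascl2 fell. The summed level of 35 endoderm genes was 2405 to 2862 in the Day 0 libraries of both lines, 2588 to 3516 at Day 2 and 3743 to 4232 at Day 4. This sum includes genes already high in undifferentiated cells, such as Lamc1 at a mean of 833.2 and Nid2 at 545 in shSC at Day 0. The part of the endoderm genes in the return of the 21 genes was not tested. The 2 shCTSL Day 2 libraries stood apart from each other, with an SD of their log2 ratio over genes of 0.618 against 0.179 to 0.250 in the other 5 groups, and the calls in shCTSL were also made without each of them.

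Values below are normalized CPM, the count over the library total times its TMM factor, unless another scale is named. The TMM factors place Day 2 lower against Day 0 by 0.395 on the log2 scale in shSC and by 0.34 in shCTSL than totals alone do, and Day 4 lower against Day 0 by 0.327 and 0.374. The shSC values chose the genes, so they are a description with no test. The shCTSL libraries did not enter the choice and were tested, in a fit whose spread was estimated from all 12 libraries.

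**Figure D1:**
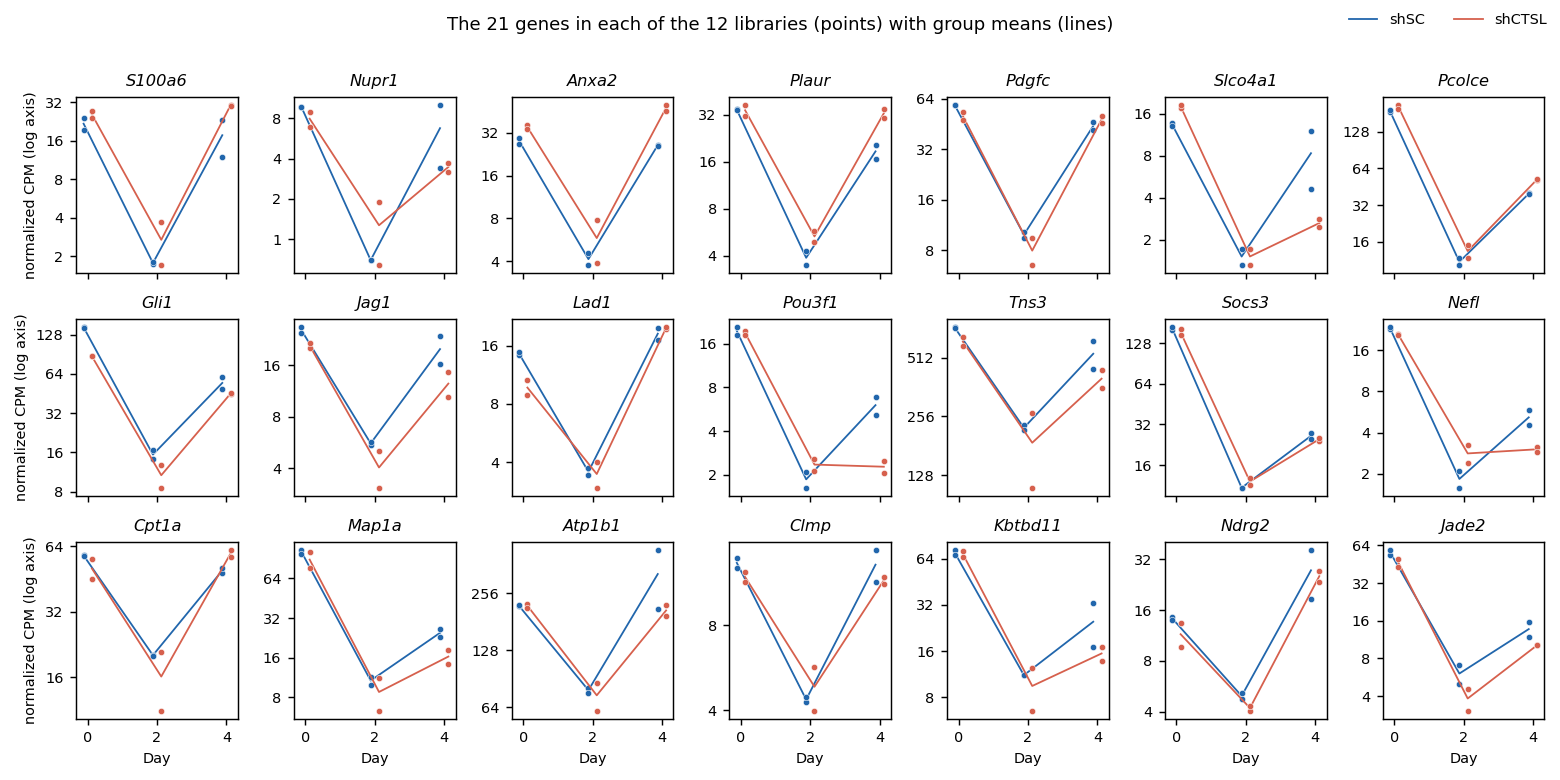
Normalized CPM (log axis) of the 21 genes against day, with 1 point per library and a line through the means of the 2 libraries, shSC in blue and shCTSL in red. All 21 genes are lowest at Day 2 in shSC, and 19 have both shCTSL Day 2 libraries below every other shCTSL library, the exceptions being Pou3f1 and Nefl.

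Several of the deepest dips were those of genes for calcium-binding, cell surface and matrix proteins. S100a6, a small calcium-binding protein of the S100 family (chr3:90416816-90418336, plus strand, mm9), measured 24.2 and 19.3 in the shSC Day 0 libraries, 1.76 and 1.79 at Day 2, and 23.4 and 11.99 at Day 4. In shCTSL it was at 27.1 and 24.2, then 3.69 and 1.70, then 30.6 and 30.1. Its Day 2 libraries lay far below all others in both lines, and its 2 shSC Day 4 libraries differed 1.95-fold. Anxa2, an annexin that binds membranes in a calcium-dependent way and can hold plasminogen at the cell surface (chr9:69301427-69339602, plus strand), measured 29.4 and 26.7, then 3.75 and 4.55, then 26.4 and 25.9 in shSC. The shCTSL libraries gave 36.2 and 33.8 at Day 0, 7.75 and 3.91 at Day 2, and 45.4 and 50.3 at Day 4. Day 4 of Anxa2 was thus near Day 0 in shSC and above it in both shCTSL libraries.

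Plaur encodes the receptor for urokinase, which activates plasminogen (chr7:25247519-25260892, plus strand). It was at 34.8 and 34.2 in shSC at Day 0, 4.28 and 3.46 at Day 2, and 20.5 and 16.8 at Day 4. The shCTSL libraries read 37.2 and 31.3, then 5.72 and 4.89, then 30.8 and 34.8, so that the Day 4 libraries of the 2 lines did not overlap. Pcolce, a secreted enhancer of procollagen C-proteinase (chr5:138046331-138055012, minus strand), was the gene with the largest Day 2 fall. It went from 185.0 and 190.8 in shSC to 11.7 and 10.3 and back only to 39.97 and 39.3. In shCTSL it went from 212.6 and 197.0 to 15.2 and 11.7 and then to 51.5 and 52.3. Pcolce thus kept the dip but regained under 50% of its Day 0 level in either line.

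Genes of cell adhesion followed the same course at other levels. Lad1, an anchoring-filament protein of epithelial basement membranes (chr1:137715175-137729918, plus strand), measured 14.3 and 14.9, then 3.72 and 3.41, then 19.8 and 17.1 in shSC. Its shCTSL values were 10.6 and 8.85, then 3.998 and 2.94, then 19.6 and 19.96, so Day 4 exceeded Day 0 in every library of both lines. Tns3, a tensin of focal adhesions (chr11:8331655-8564538, minus strand), was the most abundant of the 21 by CPM. It stood at 732.0 and 728.9, then 230.4 and 217.1, then 622.2 and 448.9 in shSC, and at 585.7 and 649.1, then 110.2 and 265.3, then 442.8 and 355.9 in shCTSL. The ratio of the 2 shCTSL Day 2 libraries of Tns3, 0.415, was the lowest among the 21 genes. Clmp, an adhesion molecule of the immunoglobulin superfamily found at epithelial junctions (chr9:40494045-40593402, plus strand), went from 13.3 ± 0.732 to 4.37 ± 0.129 and 13.1 ± 2.38 in shSC, and from 11.8 ± 0.697 to 4.85 ± 1.20 and 11.5 ± 0.458 in shCTSL (mean ± SD, n = 2 libraries).

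Ligands, a feedback inhibitor and transcription factors of signalling pathways made up the next group. Pdgfc, a ligand of the PDGF receptors (chr3:80840338-81017962, plus strand), was at 59.1 and 58.8, then 10.4 and 9.49, then 46.3 and 42.0 in shSC. It was at 47.6 and 53.5, then 6.52 and 9.45, then 46.1 and 50.3 in shCTSL, where the libraries of Day 4 and Day 0 overlapped. Jag1, a Notch ligand (chr2:136907192-136942380, minus strand), was at 24.6 and 26.6, then 5.51 and 5.69, then 23.5 and 16.2 in shSC. Its shCTSL values of 20.1 and 21.5, then 3.08 and 5.02, then 14.6 and 10.4 left both Day 4 libraries under those of shSC. Socs3 (chr11:117827393-117831361, minus strand) fell from 160.2 and 168.9 to 10.9 and 10.8 in shSC and stood at 27.5 and 25.2 at Day 4. In shCTSL it fell from 162.5 and 147.1 to 11.3 and 12.8 and then stood at 24.2 and 25.6. The lines overlapped on every day for Socs3 except Day 2, when both shCTSL libraries were slightly higher.

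Gli1, the Hedgehog pathway's transcriptional activator and itself a target of the pathway (chr10:126766945-126778645, minus strand), was at 145.7 and 144.9, then 16.6 and 14.3, then 48.9 and 60.2 in shSC. In shCTSL it measured 87.25 and 87.19, then 8.55 and 12.8, then 45.1 and 45.4, under the shSC libraries on all 3 days. Pou3f1, a POU-domain transcription factor also called Oct6 (chr4:124334896-124337899, plus strand), was at 18.4 and 20.8, then 1.63 and 2.10, then 6.89 and 5.20 in shSC. Its shCTSL values were 19.7 and 18.3, then 2.58 and 2.13, then 2.49 and 2.06. There was a fall of Pou3f1 at Day 2 in both lines and a partial return in shSC, while the shCTSL Day 4 libraries lay within or below the range of Day 2.

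The remaining genes serve metabolism, transport, stress and the cytoskeleton. Nupr1, a small stress-induced regulator of transcription (chr7:133766763-133770524, minus strand), was at 9.76 and 9.72, then 0.697 and 0.70, then 10.1 and 3.40 in shSC. It was at 8.95 and 6.95, then 1.91 and 0.638, then 3.19 and 3.74 in shCTSL. Its 2 shSC Day 4 libraries differed 2.98-fold, the widest gap of the 21 genes there, and at Day 2 its count was 21 and 16 reads in shSC. Slco4a1, an organic anion transporter (chr2:180190950-180209572, plus strand), was at 13.6 and 12.9, then 1.73 and 1.31, then 12.01 and 4.64 in shSC, and at 17.5 and 18.5, then 1.72 and 1.32, then 2.81 and 2.46 in shCTSL. For Slco4a1 the shCTSL Day 4 libraries reached neither shSC Day 4 library. Cpt1a, which passes long-chain fatty acids into mitochondria (chr19:3323301-3385732, plus strand), was at 58.3 and 57.6, then 20.3 and 20.04, then 47.9 and 50.9 in shSC, and at 45.2 and 55.8, then 11.3 and 20.98, then 61.6 and 56.9 in shCTSL. Nefl, the light neurofilament subunit (chr14:68701920-68707152, plus strand), was at 22.8 and 23.5, then 2.09 and 1.58, then 4.51 and 5.82 in shSC. In shCTSL Nefl measured 20.96 and 20.5, then 2.40 and 3.23, then 3.14 and 2.90, with Day 2 and Day 4 overlapping.

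The other 5 genes were among the 6 with the shallowest dips by the rule. Atp1b1, the beta subunit of the sodium pump (chr1:166367398-166388486, minus strand), averaged 219.4 ± 1.77 at Day 0, 78.7 ± 3.64 at Day 2 and 323.4 ± 157.2 at Day 4 in shSC (mean ± SD, n = 2 libraries). The large Day 4 SD reflects values of 434.5 and 212.3. Map1a, a microtubule-associated protein of neurons (chr2:121115336-121136568, plus strand), averaged 102.3 ± 4.85, 10.7 ± 1.02 and 24.7 ± 2.54, and Kbtbd11, a Kelch and BTB domain protein (chr8:15011025-15033330, plus strand), averaged 70.2 ± 4.02, 11.2 ± 0.0177 and 24.9 ± 11.2. Both regained under 50% of Day 0. Ndrg2, of the NDRG family (chr14:52524946-52533163, minus strand), averaged 14.3 ± 0.395, 4.95 ± 0.296 and 27.6 ± 12.6, so that its Day 4 mean, like that of Atp1b1, was above Day 0. Jade2, a PHD-finger protein of histone acetyltransferase complexes (chr11:51626957-51671155, minus strand), averaged 56.5 ± 3.54, 6.07 ± 1.46 and 13.7 ± 2.64. In shCTSL the means at Day 0, Day 2 and Day 4 were 219.9 ± 8.55, 73.9 ± 17.6 and 207.6 ± 19.6 for Atp1b1, and 89.0 ± 17.7, 8.76 ± 3.43 and 16.3 ± 2.67 for Map1a. Kbtbd11 averaged 68.4 ± 4.02, 9.50 ± 4.13 and 15.5 ± 2.39, Ndrg2 11.5 ± 2.59, 4.20 ± 0.198 and 25.5 ± 2.78, and Jade2 46.6 ± 4.71, 3.84 ± 1.07 and 10.2 ± 0.0382.

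Depth by the rule, the lower of the Day 0 and Day 4 CPM means over the Day 2 mean plus 0.5, ran from 7.43 for S100a6 to 2.002 for Jade2. The members nearest to the threshold were Kbtbd11 at 2.03, Ndrg2 at 2.01 and Jade2. Just outside it lay Zfp462 at 1.99, the RNA-binding protein gene Zfp36l2 at 1.98 and Stat3 at 1.96. All 3 met it with CPM scaled by TMM factors. Stat3, the transcription factor through which LIF acts, had shSC means of 157.5, 77.8 and 153.2 CPM over the 3 days and shCTSL means of 138.4, 75.8 and 145.8 CPM. Where the limit is drawn thus decided whether Stat3 was counted beside its target Socs3. Per kb of exonic length, which allows genes to be compared, the shSC Day 0 level was highest for Atp1b1 at 90.6 normalized CPM per kb, followed by Tns3 at 65.3 and Socs3 at 56.9, and lowest for Slco4a1 at 2.77 and Clmp at 2.89.

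**Figure D2:**
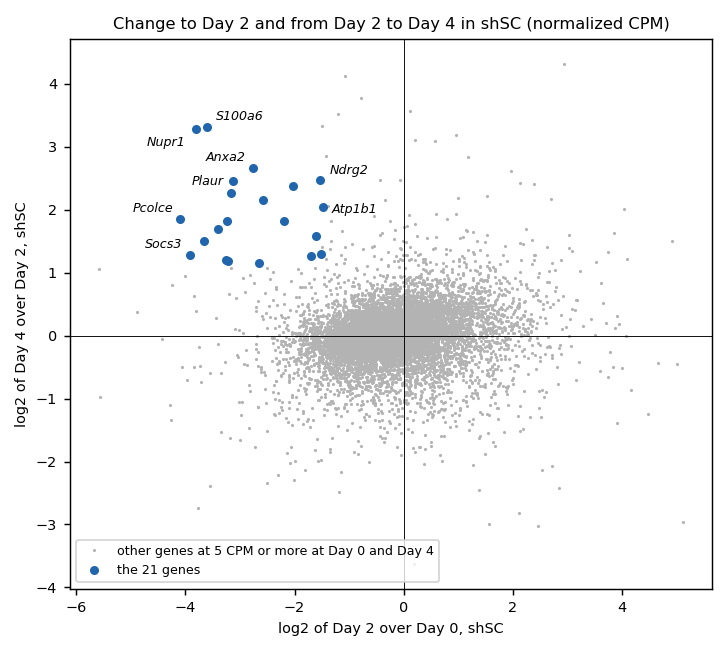
Log2 ratio of the Day 2 over the Day 0 mean (horizontal) and of the Day 4 over the Day 2 mean (vertical) in shSC, on normalized CPM, for the 9634 genes that met the level (grey) with the 21 genes in blue. The 21 genes occupy the upper left, as the rule demands, and since both axes hold the Day 2 mean its error moves a point along both.

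In shSC the Day 2 mean was 5.85% of Day 0 for Pcolce to 35.9% for Atp1b1, with a median of 11.4%, against a median of 85.6% over the genes that met the level. Day 4 ranged from 16.0% of Day 0 for Socs3 to 193.2% for Ndrg2, with a median of 69.4%. Lad1, Atp1b1 and Ndrg2 had Day 4 means at or above Day 0, and 8 genes remained under 50%, namely Pcolce, Gli1, Pou3f1, Socs3, Nefl, Map1a, Kbtbd11 and Jade2. Scaled by library totals alone, 7 genes rather than 3 had a Day 4 mean at or above Day 0, the added ones being S100a6, Anxa2, Cpt1a and Clmp. Both Day 2 libraries lay under all 4 others for all 21 genes, which the rule largely fixes, while this held for 19.8% of the genes at that level.

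The 2 shSC Day 4 libraries did not return equally. Replicate 1 was above replicate 2 for 16 of the 21 genes, and by at least 1.5 times for S100a6, Nupr1, Slco4a1, Atp1b1, Kbtbd11 and Ndrg2. The median ratio of replicate 1 to replicate 2 was 1.22 over the 21 genes and 1.01 over all genes at the level. With shSC Day 4 replicate 1 left out, Slco4a1, Nupr1, Kbtbd11, Tns3 and Jade2 no longer met the rule, and with replicate 2 left out Map1a and Nefl did not. Clmp and Ndrg2 were lost without shSC Day 0 replicate 1, and Ndrg2 without shSC Day 2 replicate 1. Map1a, Jade2 and Nefl were lost without shSC Day 2 replicate 2. The membership of all these genes thus rests on single libraries, and the Day 4 returns of Nupr1 and Slco4a1 in shSC were carried mainly by replicate 1.

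In shCTSL, where the pattern could be tested, every one of the 21 genes fell from Day 0 to Day 2. All 21 passed the filter on low counts. The call asks for an edgeR quasi-likelihood adjusted p under 0.05 over 15532 genes and a change of at least 1.5-fold, and it was met downward by 21 of 21 genes against 24.6% of all genes tested, while 30.9% of all genes were called upward. The log2 changes ran from -3.93 ± 0.14 (SE) for Pcolce to -1.27 ± 0.20 for Clmp, with a median of -2.73 against 0.0786 over all genes. The next largest falls were those of Socs3 at -3.68 ± 0.12, Slco4a1 at -3.58 ± 0.40, Jade2 at -3.58 ± 0.24 and Map1a at -3.32 ± 0.26. The smallest after Clmp were Ndrg2 at -1.46 ± 0.30, Lad1 at -1.51 ± 0.19, Atp1b1 at -1.57 ± 0.28 and Cpt1a at -1.63 ± 0.23. Among the 21 genes the largest edgeR adjusted p was 0.00186, for Ndrg2. No single library decided these calls, since 21 of 21 were called downward with each of the 12 libraries left out in turn.

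From Day 2 to Day 4, 16 of the 21 genes rose in shCTSL, against 11.0% of all genes tested. With the 6 shCTSL libraries fitted alone they were 14 against 7.21%. Without shCTSL Day 2 replicate 2 they were 17 against 20.5%, and without shCTSL Day 4 replicate 1 they were 14 against 7.26%. The median log2 change of the 21 was 1.53, and that of all genes was -0.0161. S100a6 rose by 3.54 ± 0.37 (edgeR adjusted p = 9.14e-05), Anxa2 by 3.06 ± 0.25, Plaur by 2.63 ± 0.17, Ndrg2 by 2.60 ± 0.30, Pdgfc by 2.58 ± 0.17 and Lad1 by 2.53 ± 0.18. These 6 genes, led by the genes for calcium-binding and surface proteins, had the largest rises. Gli1 at 2.07 ± 0.18, Pcolce at 1.95 ± 0.13, Cpt1a at 1.87 ± 0.23, Jag1 at 1.599 ± 0.26, Atp1b1 at 1.49 ± 0.28, Jade2 at 1.39 ± 0.23 and Clmp at 1.23 ± 0.19 also passed. The other 3 that rose did so least, Tns3 by 1.09 ± 0.32, Socs3 by 1.04 ± 0.11 and Map1a by 0.88 ± 0.25. The calls of Tns3 and Map1a were lost with the shCTSL libraries fitted alone. The call of Tns3 was lost without shSC Day 0 replicate 2, shCTSL Day 2 replicate 1 or either shCTSL Day 4 replicate, and that of Map1a without shCTSL Day 2 replicate 1 or Day 4 replicate 1.

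The other 5 genes did not pass for the return in shCTSL. Nupr1 had a log2 change of 1.53 ± 0.55 (edgeR adjusted p = 0.0627), Slco4a1 of 0.81 ± 0.43 (edgeR adjusted p = 0.188) and Kbtbd11 of 0.68 ± 0.32 (edgeR adjusted p = 0.141). Pou3f1 at -0.04 ± 0.23 (edgeR adjusted p = 0.915) and Nefl at 0.08 ± 0.22 (edgeR adjusted p = 0.806) were near 0. A p above the threshold does not show that a gene stayed level, and Nupr1 was called when shCTSL Day 2 replicate 1, shSC Day 4 replicate 1 or shSC Day 4 replicate 2 was left out, and also with DESeq2, with no filter on low counts, with the replicate block and with length offsets. Its edgeR or DESeq2 adjusted p over the alternatives was 0.00325 to 0.194. Slco4a1 was called with either shSC Day 4 library left out, and Kbtbd11 without shCTSL Day 2 replicate 2.

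**Figure D3:**
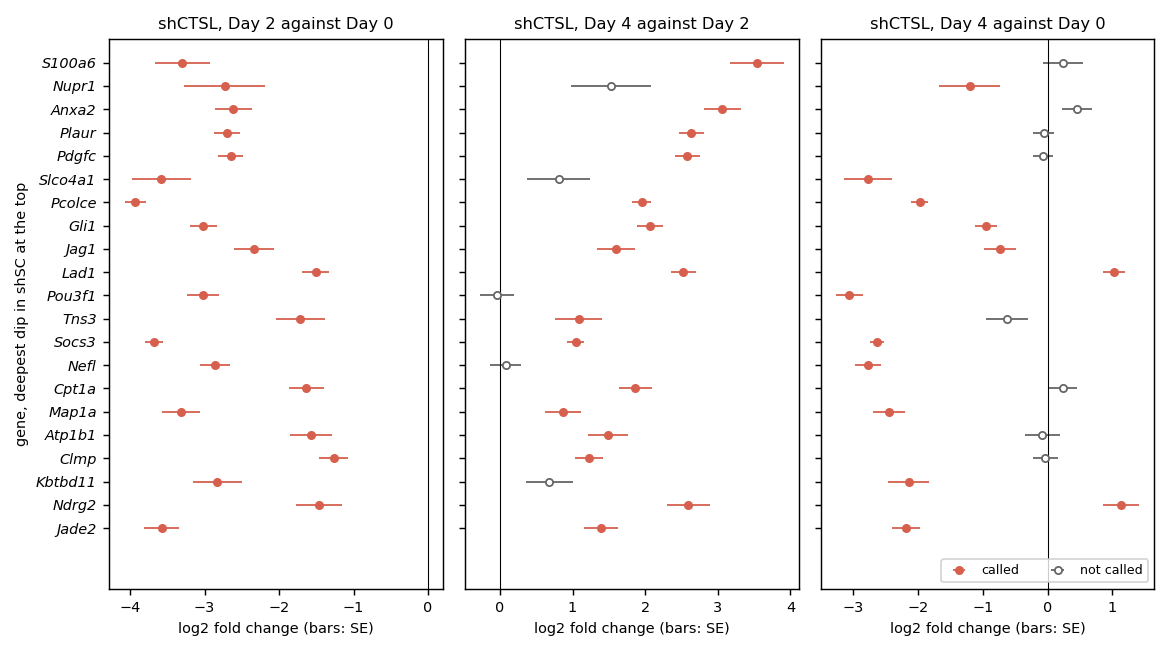
Log2 fold change of each of the 21 genes in shCTSL with its standard error, for Day 2 against Day 0, Day 4 against Day 2 and Day 4 against Day 0, ordered by depth in shSC. Filled points passed the call (21, 16 and 13 genes) and open points did not, among them Pou3f1 and Nefl near 0 in the middle panel.

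Day 2 was also set against the mean of Day 0 and Day 4, taken on the log2 scale here and for the lists below. This mean lies under the mean of the levels where the days differ. Against it, Day 2 was called lower in shCTSL for 21 of 21 genes, while 11.0% of all genes were. Without shCTSL Day 2 replicate 2 it was 21 of 21 against 18.0%. The log2 differences ran from -3.42 ± 0.35 for S100a6 to -1.25 ± 0.17 for Clmp, with a median of -2.10 against 0.0357 over all genes. For Pou3f1 at -1.49 ± 0.20 and Nefl at -1.47 ± 0.18 the low mean of Day 4 means that Day 0 carries this difference. Both shCTSL Day 2 libraries lay below all 4 others for 19 of the 21 genes, where Pou3f1 and Nefl were the exceptions. Of all genes that reached 5 CPM at Day 0 and Day 4 in shCTSL, 10.2% did so. That level was met by 17 of the 21 and leaves out both exceptions, so that all 17 did so is partly fixed by it.

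Day 4 of shCTSL differed from Day 0 for 13 of the 21 genes, a share close to the 59.9% of all genes that were called. Lad1 at 1.02 ± 0.17 and Ndrg2 at 1.13 ± 0.28 on the log2 scale were higher at Day 4, while 32.3% of all genes were called higher. Called lower were 11 genes, against 27.6% of all genes. They were Pou3f1 at -3.06 ± 0.21, Nefl at -2.78 ± 0.20, Slco4a1 at -2.77 ± 0.37, Socs3 at -2.64 ± 0.11, Map1a at -2.45 ± 0.24, Jade2 at -2.19 ± 0.22, Kbtbd11 at -2.15 ± 0.32, Pcolce at -1.98 ± 0.13, Nupr1 at -1.20 ± 0.47, Gli1 at -0.95 ± 0.17 and Jag1 at -0.74 ± 0.24. The call of Nupr1 did not hold when any one of 8 libraries was left out, that is every shSC Day 0, shSC Day 2, shCTSL Day 0 and shCTSL Day 4 library, and that of Jag1 was lost when shCTSL Day 0 replicate 1, Day 0 replicate 2 or Day 4 replicate 2 was left out. For S100a6, Anxa2, Plaur, Pdgfc, Tns3, Cpt1a, Atp1b1 and Clmp the change was between -0.63 ± 0.32 (Tns3) and 0.45 ± 0.23 (Anxa2) and was not called. Tns3 was called with either shCTSL Day 2 library left out.

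The same rule applied to the shCTSL means found 23 genes, 0.237% of the 9692 at the level, and 12 of them were among the 21, which is 57.1% of the shSC genes and 52.2% of the shCTSL genes. The 9 that did not meet it in shCTSL were Lad1, Map1a, Slco4a1, Pou3f1, Nupr1, Kbtbd11, Clmp, Ndrg2 and Nefl. Lad1 and Ndrg2, with a depth of 1.96 and 1.95, missed it narrowly, whereas Slco4a1 at 1.36, Nefl at 0.940 and Pou3f1 at 0.828 fell well short. The other 11 that met it were Msln, Slc1a3, Npr3, Thbs1, Pecam1, Lmo7, Tmsb4x, Ddx58, Ccnd1, Lifr and Zfp36l2, whose depth in shSC was 1.34 to 1.98. Lifr, the LIF receptor, had means of 178.6, 64.7 and 87.4 CPM over the days in shSC and 163.7, 40.5 and 84.0 CPM in shCTSL. The count in shCTSL depended on 1 library, since without shCTSL Day 2 replicate 2 it came to 232 genes, of which 16 were among the 21, and without replicate 1 to 21 genes, of which 9 were.

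**Figure D4:**
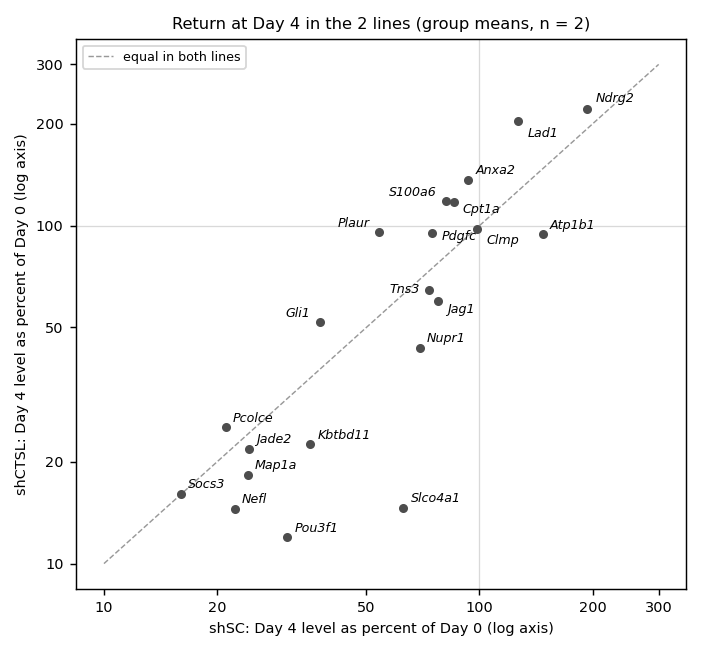
Day 4 mean as a percent of the Day 0 mean for each of the 21 genes in shSC (horizontal) and shCTSL (vertical), both on log axes, from normalized CPM with n = 2 libraries per group. Slco4a1 (62.7% and 14.6%) and Pou3f1 (30.8% and 11.98%) lie farthest below the dashed line of equal return, and Plaur (54.1% and 95.8%) farthest above it.

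The levels of the lines were set side by side without a test, since the shSC values had chosen the genes. At Day 4 the ratio of the shCTSL to the shSC mean ran from 0.316 for Slco4a1 and 0.377 for Pou3f1 to 1.83 for Anxa2, 1.76 for Plaur and 1.72 for S100a6. Both shCTSL Day 4 libraries lay above both of shSC for S100a6, Anxa2, Plaur, Pcolce and Cpt1a, 5 of 21 against 30.2% of all genes at the level. They lay below both for Slco4a1, Gli1, Jag1, Pou3f1, Tns3, Nefl, Map1a and Jade2, 8 of 21 against 37.2%. These Day 4 shares are near or under those of all genes. At Day 0 both shCTSL libraries lay below both of shSC for 11 of the 21 genes, against 31.7% of all genes at the level, and above both for 3, against 25.9%. At Day 2 they lay below for 5 and above for 5, against 24.7% and 23.0%. At Day 0 the ratios were between 0.6001 for Gli1 and 1.36 for Slco4a1, and at Day 2 between 0.632 for Jade2 and 1.82 for Nupr1.

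The difference between the 2 shCTSL Day 2 libraries went with gene length. Over the genes that met the level in shSC, the median ratio of replicate 1 to replicate 2 was 1.47 in the shortest of 4 equal classes of exonic length, 1.07 and 0.875 in the next classes and 0.681 in the longest. The 21 genes fell 5, 7, 5 and 4 into these classes, with a median exonic length of 3782 bases against 3926, so they were neither short nor long as a group. Their own ratios ran from 0.415 for Tns3, with 11182 bases, to 2.99 for Nupr1, with 2452 bases, and S100a6, with 719 bases, stood at 2.17. With offsets that take out the length trend of each library the calls in shCTSL were 21 downward at Day 2 and 17 upward at Day 4, against 21 and 16 without offsets.

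**Figure D5:**
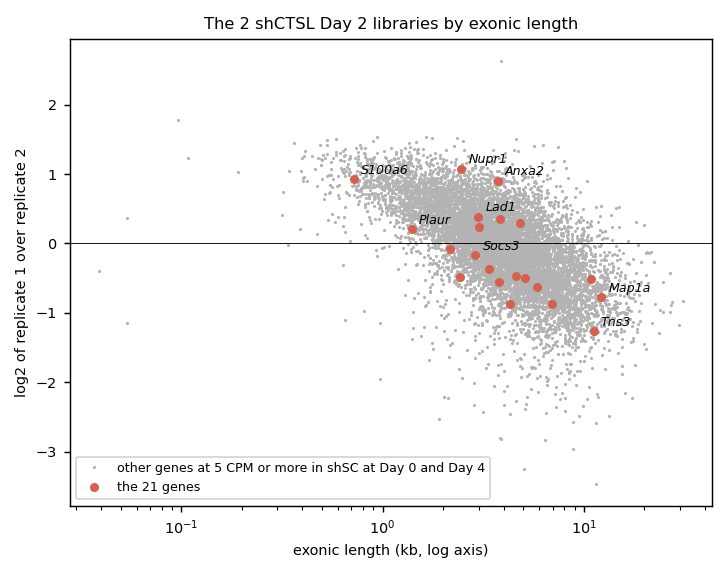
Log2 ratio of shCTSL Day 2 replicate 1 over replicate 2 (normalized CPM with 0.5 added) against exonic length in kb on a log axis, for the 9634 genes that met the level in shSC where a length was found (grey) and the 21 genes (red). The ratio falls with length, and S100a6, Anxa2 and Nupr1 lie high while Tns3 and Map1a lie low.

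The 21 genes lie on 12 chromosomes, with at most 3 on the same one. Promoter sequences were looked at for letters that transcription factors of these pathways bind, in windows of 250 bases before the start from RefSeq on the build GRCm38.p6, on both strands. Windows existed for 15 of the 21 genes, 18 windows in all, and for Pou3f1, Clmp, Kbtbd11, Gli1, Jade2 and Nefl there was no entry. The letters TTCNNNGAA, which STAT factors bind, stood in the windows of Nupr1 and Socs3, 11.1% of the 18 windows against 7.02% of all 32851 windows and 5.65% of those of genes at the level. The letters TGANTCA, bound by AP-1, stood in those of Anxa2 and Plaur, again 11.1% against 6.75% and 3.80%. The GC box GGGCGG was in 66.7% of the 18 windows and in 61.0% of those of genes at the level, the letters CCAAT in 22.2% and 35.7%, TATAAA in 11.1% and 5.56%, CACGTG, bound by MYC, in 5.56% and 8.89%, and GGAATG, bound by TEAD factors, in 11.1% and 10.2%. With 18 windows each match is 5.56%, and a match is a description of letters, not of a bound site. Of the 4 windows with the STAT or AP-1 letters, the 3 of Plaur, Anxa2 and Socs3, the last as the member of the LIF pathway, are shown with these letters in capitals. They are chr11:117969367-117969616 on the minus strand for Socs3, chr7:24462233-24462482 on the plus strand for Plaur and chr9:69453433-69453682 on the plus strand for Anxa2, each 5′ to 3′ in GRCm38.p6.
Socs3: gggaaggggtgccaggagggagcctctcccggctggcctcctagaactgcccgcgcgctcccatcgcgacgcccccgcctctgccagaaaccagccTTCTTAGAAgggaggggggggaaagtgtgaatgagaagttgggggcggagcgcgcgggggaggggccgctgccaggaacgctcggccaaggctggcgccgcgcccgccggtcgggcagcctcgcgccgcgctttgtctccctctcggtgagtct
Plaur: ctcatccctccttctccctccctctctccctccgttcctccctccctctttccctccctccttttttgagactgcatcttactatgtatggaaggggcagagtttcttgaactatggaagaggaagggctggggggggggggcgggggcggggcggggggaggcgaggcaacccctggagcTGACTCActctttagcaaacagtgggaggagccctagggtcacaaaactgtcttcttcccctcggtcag
Anxa2: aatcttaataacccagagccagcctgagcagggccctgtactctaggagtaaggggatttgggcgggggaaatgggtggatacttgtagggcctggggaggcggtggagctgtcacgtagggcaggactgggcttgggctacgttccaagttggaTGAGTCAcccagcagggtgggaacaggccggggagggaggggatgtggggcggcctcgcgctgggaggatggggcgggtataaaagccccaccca

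Lists of related genes, chosen by function, were counted in shCTSL for Day 2 against the log2 mean of Day 0 and Day 4. In this comparison 11.0% of all genes were called lower and 21.3% higher. A gene called lower here need not have both fallen to Day 2 and risen after it. Nor need a gene called higher have peaked at Day 2. S100a6 and Anxa2 belong to a list of 44 actin, annexin and SRF target genes, of which 11 were called lower and 4 higher. S100a6 was the lowest of them, followed by the galectin gene Lgals3 at -2.85 on the log2 scale, while Vil1 at 1.65 was the highest. Lad1 belongs to 45 tested genes of keratins and epithelial adhesion, of which 15 were lower and 12 higher, among the latter the desmosomal gene Dsc2 at 2.60. Epithelial genes thus went both ways at Day 2. Nefl belongs to 16 tested neuron genes, of which 6 were lower and 1 higher, and Atp1b1 was 1 of 2 lower among 26 genes of the sodium pump and ion transport, of which 8 were higher.

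The neuron list is led at Day 0 by genes that undifferentiated cells of this line express, with Tubb3 at a mean of 169.5 and Stmn2 at 127.3 in shSC. Of the other neuron markers, Elavl3 was at 18.3 and Map2 at 17.8 there, while Snap25 was at 0.1 and Dcx at 0.0381. The summed level of the 17 neuron genes went from 374.0 and 400.8 in the shSC Day 0 libraries to 62.7 and 64.6 at Day 2 and 72.0 and 91.6 at Day 4, and from 319.9 and 314.5 to 75.04 and 62.5 and then 64.5 and 69.9 in shCTSL. The sum of that list fell and hardly returned, like Nefl in shCTSL. Its part in the levels of Nefl and Map1a was not tested.

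Among lists that hold none of the 21 genes, that of pluripotency had 10 of 20 genes called lower at Day 2 than the mean of both other days and 1 higher. Most of these genes went on falling after Day 2. Of the 20 genes, 18 were called lower at Day 2 than at Day 0 in shCTSL, 15 were again lower from Day 2 to Day 4 and 1 was higher, against 24.6%, 12.4% and 11.0% of all genes. Klf4 at -1.91 and Tdgf1 at -2.62 were the lowest in Day 2 against the mean of both other days. The retinoic acid response list went the other way, with 18 of 20 genes called higher at Day 2, led by Hoxb1 at 6.67 and Cyp26a1, which degrades retinoic acid, at 5.64. The lowest of the 20 values was 0.51, that of the receptor gene Rara.

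Other lists with a larger share called lower than all genes included those of immediate early genes with 11 of 22, ATF4 and the unfolded protein response with 10 of 29, metallothioneins and oxidative stress with 8 of 24, YAP and TEAD targets with 6 of 24 and p53 targets with 5 of 25. In the immediate early list Myc at -1.44 and Fos at -1.37 were lower while Jun at 1.95 and Atf3 at 2.12 were higher. Genes called lower at Day 2 than at Day 0 and then higher at Day 4 were 2 of 22 in the immediate early list. They were 1 of 24 metallothionein and oxidative stress genes, 1 of 24 YAP and TEAD targets and 1 of 25 p53 targets. For the ATF4 list the fall from Day 0 to Day 2, called for 18 of 29 genes, was followed by a called rise to Day 4 for 0 of the 18. The AP-1 members of the immediate early list differed from each other. Fos was at -0.39 between Day 0 and Day 2 (edgeR adjusted p = 0.385) and rose by 2.36 from Day 2 to Day 4. Jun rose by 3.70 by Day 2 and was at -0.20 afterwards (edgeR adjusted p = 0.345). Junb was at -1.64 by Day 2 (edgeR adjusted p = 7.35e-06) and at 0.46 afterwards. Fosb was at -0.35 and then 1.99, Fosl2 at 1.30 and then 2.90, and Jund at 1.75 and then -0.28. Their relation to Plaur and Anxa2 was not tested.

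Lists of later lineages were mostly called higher or mixed. Of the visceral and parietal endoderm genes 19 of 35 were higher at Day 2 than the mean of both other days and 3 lower. The counts, higher before lower, were 16 and 7 of 37 for extracellular matrix without collagens, 8 and 4 of 20 for trophectoderm, 5 and 2 of 13 for endothelium and blood, and 4 and 3 of 11 for fibroblast genes. Many genes of these lists rose further after Day 2. From Day 2 to Day 4, 19 endoderm genes were called higher and 3 lower. The matrix list had 20 and 2, trophectoderm 10 and 2, endothelium and blood 8 and 0, and fibroblast 9 and 0. Of all genes, 11.0% were called higher and 12.4% lower. In Day 2 against the mean of both other days, the lowest matrix genes were Igfbp7 at -3.20 and Thbs1 at -2.07. Of the cholesterol and fatty acid synthesis genes 7 of 29 were higher. The remaining lists gave 8 and 6 of 34 for hypoxia and glycolysis, 8 and 1 of 23 for germline genes, and 8 and 1 of 12 for 2-cell-like genes. Without either shCTSL Day 2 library, the list counts of 4 or more in Day 2 against the mean of both other days stayed within 1.5 times, with 4 exceptions. Without replicate 2, the genes called lower were 12 of 24 for YAP and TEAD targets and 9 of 25 for p53 targets, against 18% of all genes. Those called higher were then 9 of 44 in the actin list, against 23.8% of all genes. Without replicate 1, 2 of 24 metallothionein and oxidative stress genes were called higher, against 22.1% of all genes.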

How the data were processed

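The authors enriched poly(A) RNA from 12 mESC and EB libraries, prepared them with a directional kit and deposited raw counts per RefSeq gene. Reads had been placed on mm9 by STAR 2.3.0e, filtered with SAMtools 0.1.19 to drop mitochondrial reads, non-chromosomal contigs and mapping qualities under 10, and counted by featureCounts 1.6.2. The strand setting of the counting was not stated, so reads of overlapping antisense genes may be shared. Counts of 24495 genes were used as deposited, with 11171111 to 27155553 per library, of which Rn45s took 0.170 to 3.43%.

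The genes and lists were chosen with earlier results of these data known. Every gene that met the rule was named, the 15 deepest with the value in each library, together with the 3 genes on each side of the threshold. From 20 gene lists, counts and the members with extreme values were given. Motifs were chosen after the genes were known, and normalized CPM in place of CPM by total after Day 4 against Day 0 was seen to differ between the scales.

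All 12 libraries were fitted in R 4.3.3 with edgeR 4.0.16 (filterByExpr, minimum count 10, 15532 genes, TMM, 1 mean per group, quasi-likelihood test, 6 residual degrees of freedom). A call needs a Benjamini-Hochberg adjusted p under 0.05 over all genes tested and at least 1.5-fold. Tests were two-sided, and the standard error follows from the log2 fold change and the F statistic. Where libraries come from one culture, p-values would measure technical spread alone. Alternatives were RLE normalization, DESeq2 1.42.0, no count filter (22689 genes), 1 CPM in 2 libraries (14655 genes), the 6 shCTSL libraries alone, a replicate block, exonic length offsets, other fold limits, other settings of the rule and each library left out in turn, for the lists each shCTSL Day 2 library, chosen after seeing the data. Positions and exonic lengths come from GENCODE M1 on mm9, which held 20561 genes by symbol and 1689 by another name. Figures were drawn in Python 3.11.15 with matplotlib 3.10.9.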

Additional observations from a re-analysis of the deposited data

Results flagged for a closer look

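In Anxa2 and Cpt1a the 2 lines moved in opposite directions between Day 0 and Day 4 on normalized CPM, with every shSC Day 4 library below every shSC Day 0 library and every shCTSL Day 4 library above every shCTSL Day 0 library. The difference between the lines in the log2 change of the means was 0.551 for Anxa2 and 0.46 for Cpt1a. It was not tested, because the shSC values chose the genes. Within shCTSL neither change was called (edgeR adjusted p = 0.103 for Anxa2 and 0.374 for Cpt1a). The shSC gap of Anxa2 was narrow, with 26.7 in Day 0 replicate 2 against 26.4 in Day 4 replicate 1. No share of all genes with this pattern is given beside it. The pattern depends on the scale, since with CPM by library total neither gene showed it and Plaur and Pdgfc did instead.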

How the results depend on the processing

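The count of genes that met the rule in shSC was 37 with CPM scaled by TMM factors, 9 with a ratio of at least 3, 68 with a ratio of at least 1.5 and 13 when every Day 0 and Day 4 library had to be at least 2 times the higher Day 2 library. It was 18 to 25 with a library left out. With a log2 fold change of at least 1.5 as the limit, 10 genes were called higher at Day 4 than Day 2 in shCTSL and 8 between Day 4 and Day 0. With a library left out the shCTSL calls were 21 for Day 2 against Day 0, 14 to 18 for Day 4 against Day 2, 11 to 14 for Day 4 against Day 0 and 21 for Day 2 against the mean of both other days, and 9 to 16 genes met the rule in shCTSL. Of the single-gene results under the alternatives 1786 kept direction and side of the threshold, 38 lost a call, 14 gained one and 10 changed sign. Those that changed sign had not been called. The log2 changes with a library left out ran from -0.19 to 0.0904 for Pou3f1 and from -0.12 to 0.33 for Nefl between Day 2 and Day 4, and between Day 0 and Day 4 from -0.18 to 0.068 for Plaur, from -0.15 to 0.0165 for Pdgfc, from -0.18 to 0.0121 for Atp1b1 and from -0.097 to 0.0212 for Clmp. With length offsets Plaur was at 0.0352 between Day 0 and Day 4. The cause was not tested. With a replicate block the 4 counts were 21, 17, 13 and 21, and with the shCTSL Day 2 numbers crossed, an alternative chosen after seeing the data, 21, 16, 12 and 21. The labels do not say whether same-numbered libraries were paired. Between the shCTSL days their deviations correlated at 0.2565 (Day 0 and Day 2), -0.1611 (Day 0 and Day 4) and -0.4655 (Day 2 and Day 4). These values cannot show pairing or its absence, since the 2 shCTSL Day 2 libraries also differed with gene length. With 2 libraries per group, Day 2 counts as low as 15 reads for Nupr1 and unequal shCTSL Day 2 libraries, moderate returns could be missed.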
